A study of Homo sapiens with 2 samples.

Results

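A set of 8 genes that act in autophagosome nucleation, lipid supply, membrane fusion and the lysosome was followed in a map of RNA sites of RRN3, the initiation factor of RNA polymerase I. The genes are BECN1, UVRAG, RUBCN, AMBRA1, RAB33B, TBC1D17, LAMP1 and ATG2B. They were chosen by the deposited peaks themselves: 7 of them hold at least 1 peak whose midpoint lies in the gene body on the strand of the gene, and AMBRA1 was kept as the gene without a peak. Together they hold 13 of the 7793 peaks of the list, joined into 7 of 4524 sites where peaks of the same strand touch. Since the peaks selected the genes, all counts and values of these peaks are descriptions without a test.

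The peaks come from photoactivatable-ribonucleoside-enhanced crosslinking and immunoprecipitation (PAR-CLIP) in SK-OV-3, an established human ovarian cancer line. A lentiviral vector with the EF1a promoter gave the cells stable expression of RRN3 tagged with V5 at its N terminus, and no removal of the endogenous RRN3 is described. The cells were grown in complete medium, labelled with 100 μM 4-thiouridine for 14 h and irradiated at 365 nm with 0.2 J/cm2. No nutrient stress is described for them. Both groups, the anti-V5 immunoprecipitate (IP) and the input, came from the same cleared lysate of these cells. There was 1 IP library and 1 input library, so no value below has a replicate check, and the number of reads at each peak was not used here.

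In the nucleation step of autophagy, a class III phosphatidylinositol 3-kinase complex marks a membrane with phosphatidylinositol 3-phosphate. On this membrane a phagophore forms, takes up lipid and closes around its cargo. The completed autophagosome then fuses with endosomes and lysosomes, steps that rely on Rab GTPases, their TBC-domain regulators and tethering factors, and lysosomal hydrolases degrade the content. Beclin 1, the product of BECN1, is a core subunit of the kinase complex. AMBRA1 binds Beclin 1 and promotes nucleation, whereas UVRAG and RUBCN (Rubicon) join a form of the complex that acts later, Rubicon as its inhibitor.

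The 7 sites are short, and their sequences are shown because the rest of the description turns on where they lie and what they are made of. Each window holds 30 bases of GRCh38 on the strand of the gene, with T for U and the site in capitals.
BECN1: aatgTTGCCTCTTTTCCACGGCCTCAggga
UVRAG: gagacaGTGATTATTGCGTAACGGaattag
RUBCN: tcgttattGTCGTCATCTACTCaacatgtt
RAB33B: taagaTTTTTGTTTAATCATCATGgtggtc
TBC1D17: gggcctgcTGAACGATATCCTcctcaccta
LAMP1: cgcagtgGCCGGGCCTCTTGCGTctggtaa
ATG2B: aacagaAACGTTGTGTCTCAAAAAgattcg
The capitals correspond to chr17:42823881-42823902 (minus strand) for BECN1, chr11:75944714-75944731 (plus) for UVRAG and chr3:197676068-197676081 (minus) for RUBCN. They correspond to chr4:139474946-139474964 (plus) for RAB33B, chr19:49884325-49884337 (plus) for TBC1D17, chr13:113297291-113297306 (plus) for LAMP1 and chr14:96283799-96283816 (minus) for ATG2B.

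Each of the 7 genes held a single site, and the sites fell in different kinds of sequence. On the canonical transcripts, 3 sites were intronic (BECN1, UVRAG, RUBCN) and 4 were exonic, with 2 in 3′ UTRs (RAB33B, ATG2B), 1 in a 5′ UTR (LAMP1) and 1 in coding sequence (TBC1D17). The placement of 7 chosen sites was not read as a feature of a role in the pathway: VMP1 of nucleation, given below, has a 3′ UTR site, and WDR45B and MITF have intronic ones. Over all protein-coding genes, 523 of 3670 sites (14.3%) lay in an exon of the canonical transcript. None of the 8 genes held a peak on the opposite strand. Over all protein-coding genes on chromosomes with peaks, counting either strand raised the share with a peak only from 15.9% to 17.2%.

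**Figure D1:**
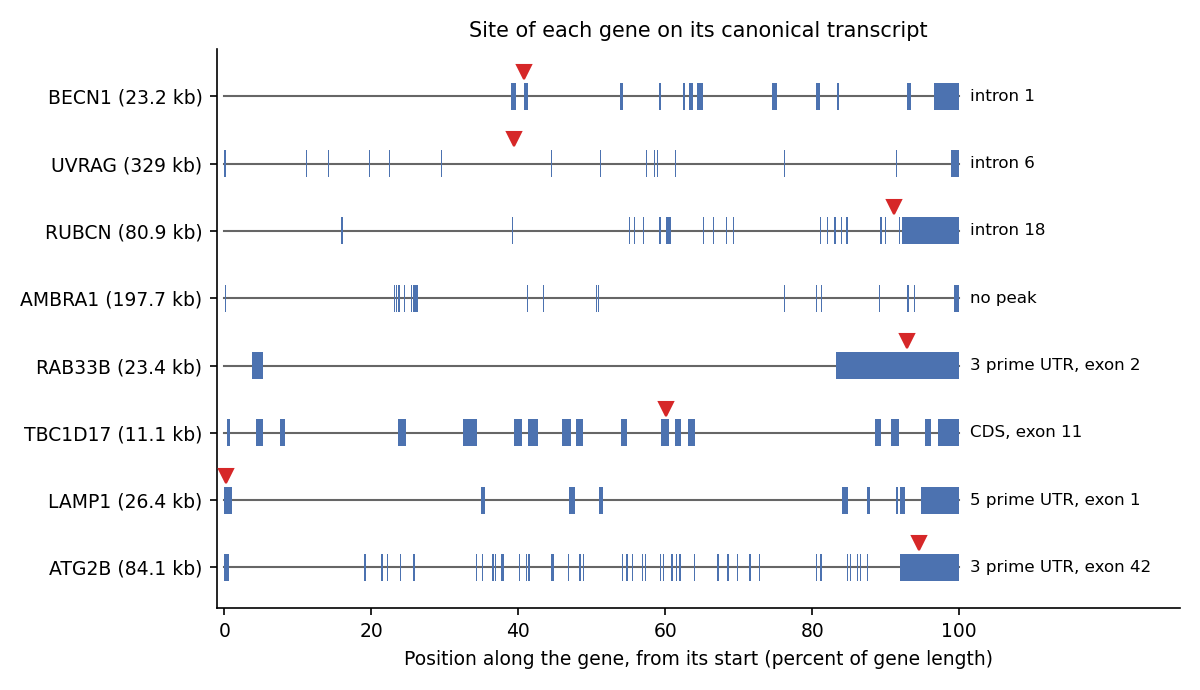
Exons of the canonical transcript (blue boxes) of the 8 genes, drawn from the start of the annotated gene (0) to its end (100 percent of gene length), with the site as a red triangle. The sites of RUBCN, RAB33B and ATG2B lie beyond 90 percent of the gene, that of LAMP1 at its start, and AMBRA1 has none.

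Of the nucleation genes, BECN1 had the site with the lowest p-value in the set. It spans 22 bases at the end of intron 1, an intron of 275 bases, and stops 1 base before the last base of the intron. The site was built from 3 listed peaks. A peak of 13 bases lay on the exon 2 side, and peaks of 8 and 9 bases shared their position beside it. Their fold enrichments, labelled as such by the authors and taken as ratios of IP over input, were 3.72, 2.08 and 2.70. For the same peaks in this order, the authors' p-values were 2.18e-68, 1.94e-25 and 1.41e-68. None of the 22 BECN1 transcripts in GENCODE carries the site in an exon, although 12 of them span it.

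All 22 bases of this site also lie within MIR6781, a microRNA gene of 64 bases on the same strand. The 7 sites overlapped no other annotated gene on either strand. The last base of the MIR6781 hairpin is the last base of intron 1, so that the splice acceptor of exon 2 forms its 3′ end. The site covers the 3′ arm and not the 5′ arm, and the mature sequences from RefSeq (GRCh38.p14) are shown with the seed, bases 2 to 8, in capitals.
hsa-miR-6781-3p: uGCCUCUUuuccacggccucag
hsa-miR-6781-5p: cGGGCCGGaggucaagggcgu
The site shares 21 of its 22 bases with hsa-miR-6781-3p, starting and ending 1 base before it, and 0 bases with hsa-miR-6781-5p, which lies 15 bases before the site. Positions on the minus strand may be off by 1 base. Over 77 overlaps of sites with mature microRNAs on this strand, the site began at the first mature base in 27 and 1 base before it in 25, whereas on the plus strand it did so in 62 and 5 of 92 overlaps. If the BECN1 site is moved by 1 base along its strand, it shares all 22 bases with hsa-miR-6781-3p. Whether its peaks stem from BECN1 RNA or from the microRNA was not tested. In a predicted fold of the hairpin (minimum free energy -20.8 kcal/mol), 16 of the 22 site bases were paired. A site was present in 156 of the 1509 microRNA genes on the chromosomes with peaks (10.3%), and in 10 of the 170 (5.88%) whose last base, as in MIR6781, closes an intron of a gene that codes for protein.

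**Figure D2:**
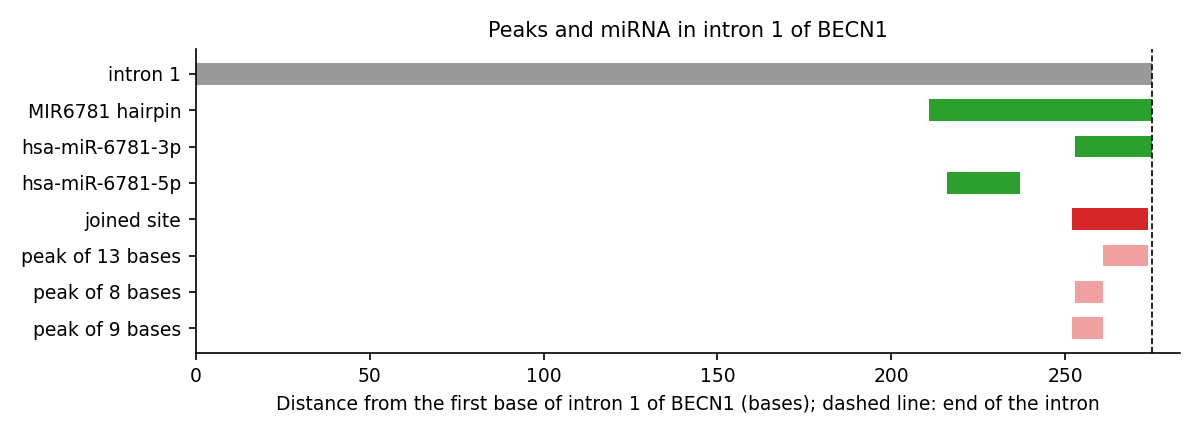
Intron 1 of BECN1 with the MIR6781 hairpin, its mature arms, the joined site and its 3 peaks, plotted as distance from the first base of the intron in bases. The site runs from 252 to 274 of the 275 bases and covers the 3p arm.

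UVRAG, the subunit of the kinase complex that acts on endosomes and at fusion, had a site of another kind. It lies deep within intron 6, an intron of 49.4 kb, 32.7 kb after the preceding exon and 16.7 kb before the next. Its peaks of 6 and 12 bases abut and carry nearly the same values: fold enrichments of 3.38 and 3.41, with p-values of the authors of 4.47e-38 and 4.56e-38. No annotated transcript of UVRAG has the site in an exon.

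The RUBCN site had the highest p-value of the set. A single peak of 14 bases lies in intron 18, 803 bases after exon 18 and 552 bases before exon 19. Its fold enrichment was 2.27 and its p-value, as the authors list it, 0.0190, which places it at rank 7585 of 7793 peaks. AMBRA1, with a gene body of 197.7 kb and 18 exons, had no peak on either strand. The nearest peak beyond its start lay 168.3 kb away, and the nearest beyond its end 1449.2 kb away, both on the minus strand like the gene.

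Of the genes of lipid supply and Rab function, ATG2B and RAB33B had their sites in long 3′ UTRs. ATG2B encodes a protein that transfers lipids to the growing phagophore, and RAB33B a Golgi Rab GTPase that binds the conjugation factor ATG16L1. The ATG2B site begins 1938 bases after the stop codon in exon 42, the last of 42 exons, and lies 29.7% along a 3′ UTR of 6560 bases. The RAB33B site begins 1819 bases after the stop codon in exon 2 of 2, 52.5% along a 3′ UTR of 3483 bases. For ATG2B, 1 transcript end of coding transcripts is annotated, 4604 bases after the site. RAB33B has 2, at 906 and 1645 bases after the site, so that the site belongs to both the shorter and the longer annotated 3′ UTR.

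Both 3′ UTR sites consist of abutting peaks. The ATG2B peaks of 6 and 12 bases had fold enrichments of 3.32 and 3.88 and p-values of the authors of 5.26e-49 and 5.87e-49. The RAB33B peaks of 6 and 13 bases had fold enrichments of 2.18 and 3.07, with authors' p-values of 1.84e-50 and 2.97e-50. The higher p-value of the pair was 1.12 times the lower in ATG2B and 1.61 times in RAB33B. The fold enrichments of the pair differed by 0.56 in ATG2B and by 0.89 in RAB33B.

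The polyadenylation hexamers AATAAA and ATTAAA were searched on the strand of the gene because alternative 3′ end formation was the subject of the study. In the 200 bases around the centre of the site, AATAAA was present at 0 of the 7 sites and ATTAAA at 2, those of RAB33B and ATG2B. In RAB33B, ATTAAA occurred 24 bases upstream and 44 bases downstream of the site, and in ATG2B 81 bases downstream. Over all 4524 sites, windows of the same length held AATAAA in 12.4% and ATTAAA in 9.90%. The short motif TGTA was present at 4 of the 7 sites and at 51.9% of all sites.

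TBC1D17, a TBC-domain protein that stimulates GTP hydrolysis by Rab proteins, had the set's only site in coding sequence. It consists of 1 peak of 13 bases in exon 11 of 17, which starts 72 bases into an exon of 117 bases and falls on codons 400 to 404 of a coding sequence of 649 codons with the stop. The fold enrichment was 2.38 and the authors' p-value 9.66e-10, at rank 6923.

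LAMP1, a heavily glycosylated protein of the lysosomal membrane, had its site near the start of the mRNA. The site covers bases 53 to 68 of exon 1, 128 bases before the start codon, in a 5′ UTR of 196 bases. Its abutting peaks of 5 and 11 bases had fold enrichments of 3.69 and 3.86 and p-values of the authors of 6.52e-49 and 9.17e-49. LAMP1 also marks the limit of the rule that chose the genes, since its site begins 52 bases inside the gene, the smallest distance between a site and the start of a gene in the set. Just outside the gene bodies, the nearest peak on the same strand lay 51.0 kb from TBC1D17, and the nearest on either strand 12.9 kb from ATG2B.

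Set side by side, the lowest p-values of the sites, all of them the authors', ran from 1.41e-68 in BECN1 through 1.84e-50 in RAB33B, 5.26e-49 in ATG2B, 6.52e-49 in LAMP1 and 4.47e-38 in UVRAG to 9.66e-10 in TBC1D17 and 0.0190 in RUBCN. The 8 peaks among the 3897 with the lowest p-values are 2 of BECN1 and all those of RAB33B, LAMP1 and ATG2B, the last 3 genes close to the middle of the list at 46.8% to 48.4% of the ranks. None of the 13 peaks was among the 779 with the lowest p-values. The median p-value of the authors over the 13 peaks was 6.52e-49, beside 2.21e-47 over all 7793 peaks, and 580 peaks of the list have a p-value given as 0. Fold enrichment ran from 2.08 to 3.88 with a median of 3.32, beside a range of 2.00 to 4.00 and a median of 3.00 over all peaks. Over the list, fold enrichment is spread evenly across this range, with 1931, 1975, 1939 and 1948 peaks in 4 successive steps of equal width from 2 to 4. How the authors scaled it is not given in the sources used here, so no fold enrichment printed here was read as a strength of binding. The authors' false discovery rate and score are 1 for every peak of the list and separate none of them.

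**Figure D3:**
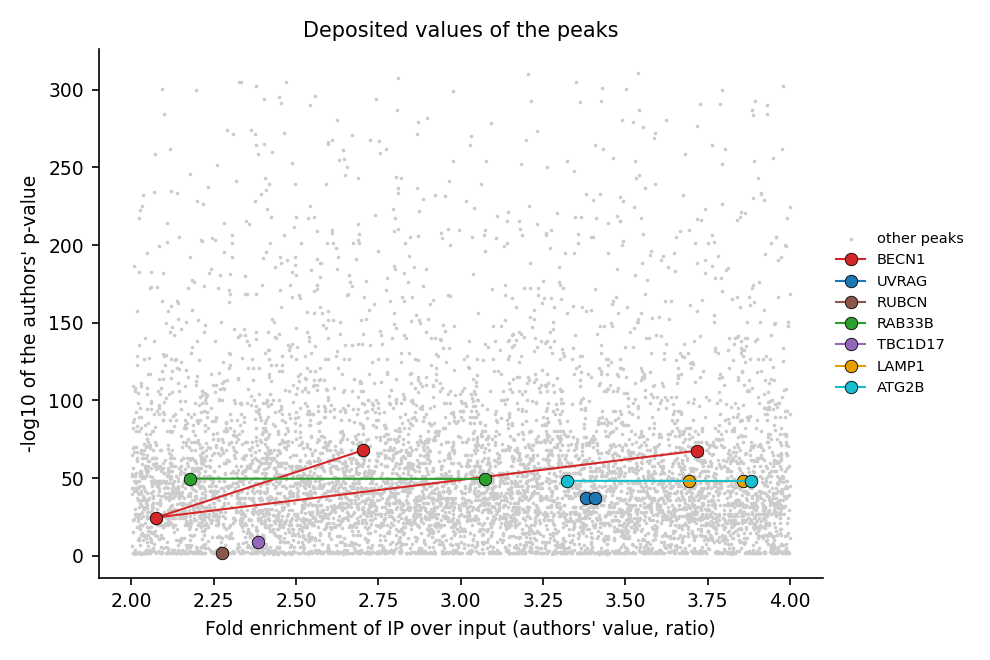
The authors' fold enrichment (taken as a ratio of IP over input) and -log10 of the authors' p-value for the peaks of the list (grey). The 580 peaks whose p-value is given as 0 are left out. The 13 peaks of the 7 genes are in colour, and peaks of 1 gene are joined by a line. Peaks of 1 gene have nearly the same height, apart from 1 BECN1 peak. Their fold enrichments differ to varying degrees, least in UVRAG (by 0.03).

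In each of the 4 genes with a pair of abutting peaks, the p-values of the pair were within 2 times of each other. Their fold enrichments differed by 0.03 in UVRAG, 0.17 in LAMP1, 0.56 in ATG2B and 0.89 in RAB33B. The higher p-value of a pair was 1.02 times the lower in UVRAG, 1.12 times in ATG2B, 1.41 times in LAMP1 and 1.61 times in RAB33B. Of 2583 pairs in the whole list with both p-values above 0, 89.8% had a ratio under 2. Over all 2724 sites of 2 peaks, Spearman's rho between the paired values was 1.00 for the p-value and -0.01 for fold enrichment. Across all peaks, rho between fold enrichment and p-value was 0.02. The paired peaks share a site and library, so these values describe the list, and the 7 genes were not ordered by the fold enrichment of single peaks.

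The member sites resembled other sites of the list in length and differed among themselves in base composition. They were 13 to 22 bases long with a median of 18, beside a median of 17 over all sites. G and C made up 21.1% of the RAB33B site and 75.0% of the LAMP1 site, with a median of 44.4%, beside 47.1% for all sites. The LAMP1 value was close to the 77.6% of the whole 5′ UTR, and the ATG2B site had 33.3% where its 3′ UTR had 40.7%. The TBC1D17 site had 38.5%, below the 57.3% of its exon and the 65.0% in the 20 bases on each side. G and C were more frequent in the site than in these bases at 3 of the 7 sites, and at 56.5% of all sites.

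Because 4-thiouridine takes the place of uridine, T in these sequences marks the positions at which crosslinking could occur. Each of the 7 sites had at least 4 T, and the most were found in RAB33B with 11 and BECN1 with 8. T made up 57.9% of the RAB33B site, which starts with a run of T, and 25.0% of the LAMP1 site. The median over the 7 sites was 33.3%, beside 26.7% for all 4524 sites, of which 97.9% held a T. In 5 of the 7, T was more frequent in the site than in the 20 bases on each side, as in 46.7% of all sites.

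A CpG was present in 6 of the 7 sites, all but that of RAB33B, and in 55.4% of all sites. The UVRAG and LAMP1 sites each held 2. The LAMP1 bases on each side held 6 more, while those beside the UVRAG site in its intron held 1. At least 1 CpG lay in the 20 bases on either side of 6 of the 7 sites as well, and of 39.6% of all sites.

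**Figure D4:**
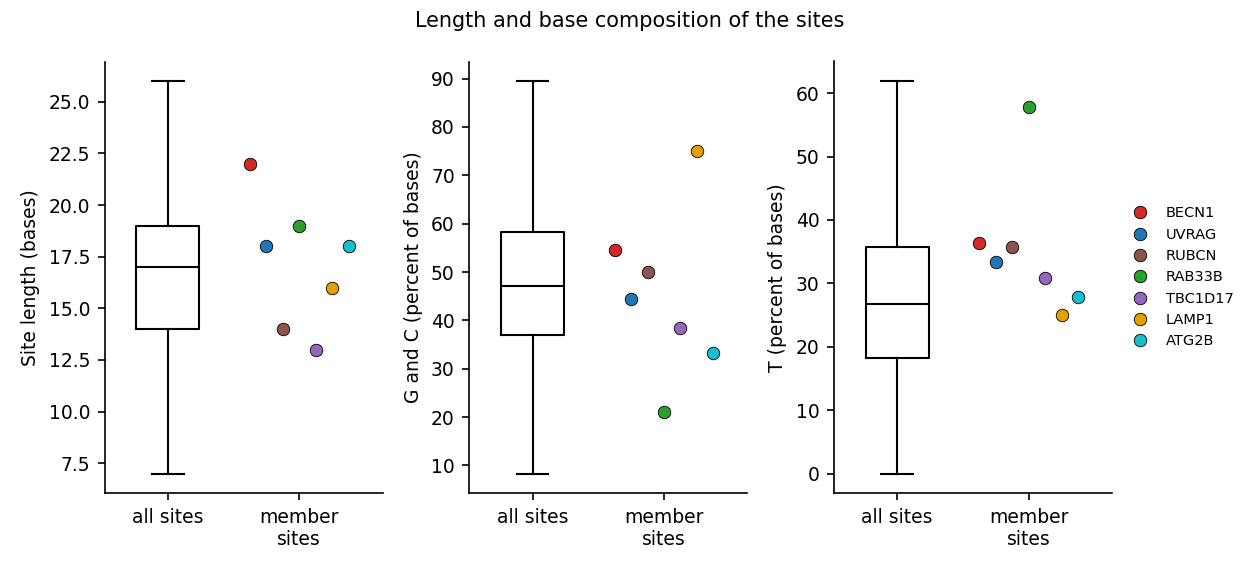
Length in bases, G and C content and T content in percent of bases of the 7 sites (coloured points) beside all 4524 sites (box: median and quartiles; whiskers: farthest values within 1.5 times the box, with values beyond them not drawn). LAMP1 has the highest and RAB33B the lowest G and C content of the 7, and RAB33B the highest T content.

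Such short sequences can occur more than once in the genome. The reads behind a peak may extend past it and were not used here. The counts below describe the printed site sequences and do not tell how firmly a site belongs to its gene. The sequences of BECN1, UVRAG, RUBCN, RAB33B, LAMP1 and ATG2B occurred once on either strand of chromosomes 1 to 22, X and Y. The 13 bases of TBC1D17 occurred 17 times, and transcripts of 3 genes carried them. With 1 mismatch allowed, the BECN1 and UVRAG sequences were still found once, those of ATG2B 4 times, LAMP1 11 times, RAB33B 14 times, RUBCN 144 times and TBC1D17 1185 times. Length sets much of this across the list: 1.46% of 411 sites of 13 bases, 8.98% of 334 sites of 14 bases and 99.2% of 613 sites of 18 bases were found once. RUBCN and TBC1D17, the genes with the shortest sites, were also those with the highest p-values.

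Gene length differed widely among the 8 genes and went with the presence of peaks across the genome. Of the 16702 protein-coding genes on the 19 chromosomes with peaks, 2662 (15.9%) held a peak on their own strand, beside 7 of these 8, which were chosen for it. The median length was 22.2 kb for the genes without a peak and 96.0 kb for the others. Among genes between 5.54 and 22.2 kb, the range from 1/2 to 2 times the length of TBC1D17, 6.25% held a peak. In the same range around BECN1 (23.2 kb), RAB33B (23.4 kb) and LAMP1 (26.4 kb), the shares were 9.51%, 9.56% and 10.7%. They were 21.7% for RUBCN and 22.3% for ATG2B, and 53.3% for UVRAG, whose gene body spans 329 kb. For AMBRA1, the second longest gene of the set and the 1 without a peak, 37.7% of 2584 genes of 98.9 to 395.4 kb held one.

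The other genes of the pathway came from a list of 71 genes in 5 groups, of which 52 lie on chromosomes with peaks. The other 19 lie on chromosomes 7, 8, 9 and X and were set aside: the list holds no peak on these or on Y for any gene, for a reason not given in the sources used here, so it may be incomplete, and the counts over all peaks and sites apply to the 19 other chromosomes. Of the 52 genes, 8 held a peak on their own strand (15.4%, beside 15.9% of all protein-coding genes), with 28 peaks in 16 sites. The list leaves out the 8 genes, and with them the count is 15 of 60. Since 7 of the 8 were chosen for having a peak, neither share tells whether the pathway holds peaks more or less often than other genes, and the genes below are named as a description. In the group of the kinase complex and phagophore nucleation, 2 of 8 genes did so: BCL2, which binds Beclin 1, and VMP1, a membrane protein of the endoplasmic reticulum. The kinase itself, PIK3C3, and its subunits PIK3R4, ATG14 and NRBF2 held none. In the group of lipid transfer and phosphoinositide binding, ATG9A and WDR45B had peaks, 2 of 5 genes, and ATG2A, the paralog of ATG2B, had none. TBC1D5 was the only 1 of 9 Rab and TBC genes, with 10 peaks in 6 sites over 1287.7 kb, and VPS39, a subunit of the tethering complex HOPS, the only 1 of 13 genes for tethering and fusion. Of 17 lysosomal genes, NPC1, a cholesterol transporter, and MITF, a transcription factor, held peaks, while LAMP3, CD63 and SCARB2, which encode lysosomal membrane proteins like LAMP1, did not.

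In 2 of these 8 genes, the peak with the lowest p-value (below, the strongest peak) lay in a microRNA gene, as in BECN1. The VMP1 peak, with a p-value given as 0, overlapped MIR21 in the 3′ UTR of exon 12, and the VPS39 peak overlapped MIR627 in intron 2, with an authors' p-value of 0.00884. Across the whole list, 181 of 4524 sites (4.00%) lay in a microRNA gene. Exonic sites without a small RNA gene were found in ATG9A (coding sequence of exon 11, authors' p-value 0.00369) and in NPC1, both of whose sites are exonic and whose lowest p-value among the authors' values was 1.75e-33 in coding sequence of exon 19. The strongest peaks of BCL2 (authors' p-value 4.83e-173), WDR45B (p-value given as 0) and MITF (authors' p-value 2.86e-44) lay in introns 2, 9 and 8. That of TBC1D5, also with a p-value given as 0, lay in the gene body but outside its canonical transcript.

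Primer pairs of the study could be placed beside the sites of ATG2B and BECN1, and they are shown because they tell which stretch of RNA an amplicon stands for.
ATG2B forward: TCCTGCACCTGTTGTCGATG
ATG2B reverse: ACCTCCCTTTGGGCTTTGTC
The ATG2B pair, listed for PAR-CLIP, frames chr14:96283506-96283855, 350 bases of exon 42 in the 3′ UTR that contain the whole site. The site begins 39 bases after the start of the amplicon and ends 293 bases before its end. For BECN1, the 3 pairs are listed for PCR and qPCR, not for PAR-CLIP. They matched exons 11 and 12, the last of the canonical transcript, whereas the site lies in its intron 1. The pair named BECN1 spans exons 11 and 12 with a product of 143 bases on the transcript, the pair named BECN1-All lies in coding sequence of exon 12 (108 bases), and the pair named BECN1-L runs from there into the 3′ UTR (280 bases). On the genome they lie 12.1 to 13.1 kb from the site in intron 1, and none contains it.

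For each gene with a peak, the most alike gene was taken as the protein-coding gene with 1 site, the same region of its strongest peak and the nearest rank of that peak's p-value in this 1 comparison of libraries. Among 1485 genes with 1 site and an intronic strongest peak, these were MCOLN3 for BECN1 (6 ranks apart), DTNB for UVRAG (4 ranks) and ELMO2 for RUBCN (2 ranks). Among 90 genes with a 3′ UTR peak, they were SLC9B2 for RAB33B (40 ranks) and ST8SIA2 for ATG2B (4 ranks). EMX2 was nearest to TBC1D17 among 201 genes with a coding-sequence peak (3 ranks), and SPRY1 to LAMP1 among 34 genes with a 5′ UTR peak (41 ranks).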

How the data were processed

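PAR-CLIP of SK-OV-3 cells gave 1 list of peaks for 1 IP library against 1 input library. The deposited fold enrichment is the authors' value per peak and was taken as a ratio of IP over input. The deposited p-value, false discovery rate and score are also theirs. Aligner, peak caller, threshold, scaling and test are not given in the sources used here. The labels name GRCh38. Starts were read as counting from 0 and are printed from 1.

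The genes, lists and alternatives were chosen with earlier results of these data known. Peaks were placed by midpoint in GENCODE 44 genes on their own strand, and touching peaks were joined; sites were placed by the midpoint of their first peak on the Ensembl canonical transcript. Named genes were the 8 members, listed pathway genes with a peak, genes overlapping a member site, and the gene most alike to each member by rank; MIR21, MIR627 and listed genes without a peak were named after their values were seen. No test was run. Placement, joining and sequence counting were tested on simulated data. Alternatives covered strand, peak strength, joining, gene extent, transcripts and sequence window. Sequences were read with samtools 1.23.1 and pysam 0.24.0, folded with RNAfold 2.7.2 and counted with numba 0.67.0; tables and figures used Python 3.11.15, pandas 2.3.3, numpy 2.4.6, matplotlib 3.10.9 and scipy 1.17.1.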

Additional observations from a re-analysis of the deposited data

How the results depend on the processing

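Of 29 values of 9 results under alternatives, 22 stayed within 1.5 times the reported count or, for percentages, within its 95% Wilson interval (over genes, or, as a rough range, over the bases of the 7 sites), and 7 moved. With the 3897 peaks of lowest p-value, 8 peaks and 4 sites were left in the 8 genes, 4 listed pathway genes held a peak, and 7.47% of protein-coding genes did; with the 779 of lowest p-value, 0 peaks were left. These settings lower counts by construction. Settings that widen a rule can only keep or raise counts. They are either strand, any overlap, a longer gene body, any transcript, and added bases for the CpG count. The number of values that stayed is therefore no measure of robustness. On either strand, 17.2% of protein-coding genes held a peak, while the counts for the 8 genes and the listed genes did not change. With 1 mismatch allowed, 2 sites were found once in the genome in place of 6. With 20 bases added on each side, the median T content of the sites was 27.8% in place of 33.3%. The median G and C content was 40.7% in place of 44.4%. Both counted as staying, by a range that treats neighbouring bases as independent and is wide for 7 sites. The 3 values with minus-strand sites moved by 1 base, an alternative chosen after seeing the data, were among those that stayed. With 1 library per group, no value could be checked against replicates.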
